A study of Mus musculus with 16 samples.

Results

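The contrast described here asks whether lymphatic endothelial cells (LECs) that lack Clever-1 answered immunization with ovalbumin (OVA) differently from WT LECs. It takes the OVA response of KO LECs, which is KO inflamed minus KO, and subtracts the OVA response of WT LECs, which is WT inflamed minus WT. A positive value means a change that was more positive in KO LECs, and a negative value one that was more negative, whichever genotype had the higher level. All 16 libraries of the series entered it, 4 for each of 4 groups, and 12684 of 24946 gene names were tested because they reached a TPM of at least 1 in at least 4 libraries.

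The WT group held LECs of wild type mice at steady state, and the KO group held LECs of Stab1-/- mice at steady state. The WT inflamed and KO inflamed groups held LECs of the same genotypes taken 1 day after OVA in Freund's adjuvant was injected into the footpad. The sample labels call the adjuvant complete and the paper calls it incomplete. The labels give the strain as C57BL/6, while the paper's methods name a mixture of 129SvJ with C57BL/6N and mice of both sexes aged 6 to 12 weeks. Stab1 was deleted in the whole mouse, so every cell of the KO animals lacked it. Live LECs were sorted as CD45-, CD31+ and podoplanin+ cells from pooled popliteal and brachial LNs, and a supplementary legend says that mice were pooled in each library.

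LECs line the sinuses through which lymph, antigen and migrating dendritic cells (DCs) enter and leave an LN. They scavenge lymph proteins, secrete and clear chemokines, and can present antigen in a way that holds T cells in check. Clever-1, the product of Stab1, is a scavenger and adhesion receptor of LECs and of some macrophages. An adjuvant emulsion raises interferons and inflammatory cytokines in the node within a day, and the node starts to grow. Interferons switch on antiviral proteins and immune GTPases in most cell types, whereas node growth brings LECs into the cell cycle.

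The sorted cells carried the transcripts that the gate and the genotype call for. Stab1 was listed at 235, 245, 248 and 237 TPM in WT LECs and at 5.09, 6.07, 6.66 and 5.72 TPM in KO LECs. In inflamed LECs it was at 271, 192, 639.5 and 374 TPM in WT LECs and 6.43, 5.85, 8.9 and 8.62 TPM in KO LECs, so the genotypes did not overlap in either state. Pdpn, which encodes podoplanin, was at 69.9 to 76.9 TPM in WT, 65.8 to 73 in KO, 89.7 to 147 in WT inflamed and 144 to 161 in KO inflamed LECs. Pecam1 and the lymphatic receptor gene Lyve1 stayed above 300 TPM in every library, and Prox1, the master regulator of lymphatic fate, lay between 53.5 and 104 TPM in all libraries but one. That library was WT inflamed replicate 2, with 16.8 TPM of Prox1 and 308 TPM of Pecam1. Ptprc, which encodes CD45, was at most 2.84 TPM.

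WT inflamed replicate 2 stood apart from all other libraries in measures that use no gene list. It had 10903 genes at 1 TPM or more where the others had 11898 to 12133, and its 100 most abundant genes took 35.2% of all TPM where the others gave them 26.4% to 32.2%. The median gene of this library was at 0.59 of its geometric mean over the 16 libraries, against 0.90 to 1.20 elsewhere. Its mean correlation with the other WT inflamed libraries was 0.91, and this mean was 0.952 to 0.955 for those libraries and 0.969 to 0.984 in the other 3 groups. It enters the WT inflamed mean of every gene, so results are given with and without it wherever it decides them. TPM keep no sequencing depth, so precision is judged only from how the 4 libraries of a group spread.

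With all 16 libraries, limma called 0 genes higher and 0 lower in the interaction, each 0% of the genes tested. To be called, a gene had to differ by 1 or more on the scale of log2(TPM + 1), which understates the change of low genes, with a Benjamini-Hochberg adjusted p no higher than 0.05. At an unadjusted p under 0.05 there were 542 genes, or 4.27%, and the smallest adjusted p was 0.0573. The 95% interval reached a median of 0.681 to either side of the estimate, and 49.8% of the genes had an interval that lay within 1 of 0 on either side. For the other genes the interval reached past a 2-fold difference in at least 1 direction.

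Leaving out WT inflamed replicate 2 narrowed the intervals and gave calls. They reached a median of 0.439 to either side, 84.9% of the genes had an interval within 1 of 0, and 899 genes, or 7.10%, had an unadjusted p under 0.05. Limma then called 5 genes higher (0.0395%) and 1 lower (0.0079%). The median interaction of all genes was 0.23 with all libraries and 0.061 without this one. Rescaling each library by its median ratio to the others moved it to -0.018 and gave 1 call in each direction (0.0079% each). Both changes together gave a median of 0.006 and 2 genes higher (0.0158%) and 1 lower (0.00791%). Single genes and gene groups are therefore read beside the median of all genes under the same setting.

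The OVA response itself was broad in both genotypes. WT LECs had 383 genes higher after OVA (3.02%) and 329 lower (2.59%), and KO LECs had 653 higher (5.15%) and 370 lower (2.92%). Without WT inflamed replicate 2 the counts were 784 (6.19%) and 377 (2.98%) in WT, and 785 (6.2%) and 392 (3.09%) in KO LECs. With median ratio rescaling of all libraries they were 436 (3.45%) and 304 (2.40%) in WT, and 390 (3.08%) and 586 (4.63%) in KO, so the excess of higher over lower calls in KO turned to the opposite with the scaling. Of the genes called, 483 were called in both genotypes and all of these in the same direction, which is 67.8% of the WT calls and 47.2% of the KO calls. Without the library that stood apart, 788 genes were called in both in the same direction (67.9% of the WT and 66.9% of the KO calls) and 1 in opposite directions.

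**Figure D1:**
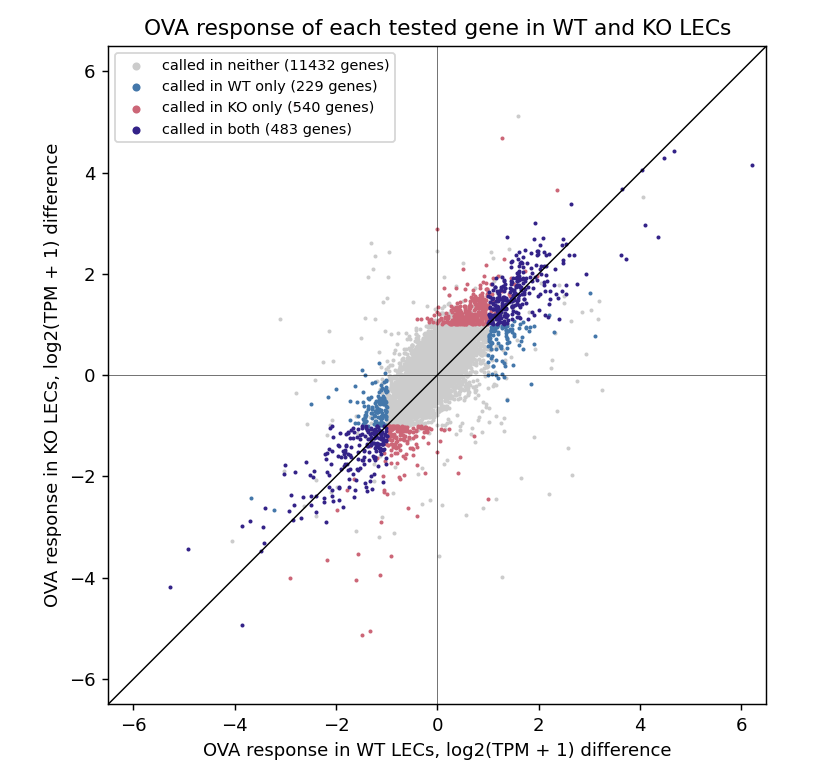
OVA response of each of the 12684 tested genes in WT LECs (x axis) and KO LECs (y axis), as the difference of mean log2(TPM + 1) between inflamed and steady state groups of 4 libraries each; colours give the calls and the line marks equal responses. The 483 genes called in both genotypes follow the line, and the 540 called in KO only and 229 called in WT only lie mostly on the same side of 0 in the other genotype (1 gene lies beyond the axes).

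Across all genes tested, the responses of WT and KO LECs had a Pearson r of 0.733, and of 0.824 without WT inflamed replicate 2. These are descriptions across genes, which are not independent replicates, and the 2 responses share no library. The 383 genes called higher in WT LECs had a median response of 1.41 there and 1.39 in KO LECs. The 653 called higher in KO LECs had a median of 1.30 there and 0.96 in WT LECs. Without the deviating WT library, the 785 genes then called higher in KO LECs had medians of 1.24 and 1.23. The 540 genes called in KO only and the 229 called in WT only are not shown to differ between genotypes, since the interaction called none of them with all libraries.

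The 6 genes called without WT inflamed replicate 2 fell into a few patterns, and 5 of them were already called between KO and WT at steady state, where 35 genes (0.276%) were called higher and 30 (0.237%) lower. They were singled out after their values were seen. Nt5dc2, a member of the 5'-nucleotidase domain family, was at 56.7, 55.2, 59.4 and 52.5 TPM in WT LECs and 258, 247, 284 and 297 TPM in KO LECs. The values after OVA were 40.3, 86.5, 40.2 and 43.4 TPM in WT LECs and 617, 532, 558 and 616 TPM in KO LECs. The KO libraries were above every WT library in both states and higher again after OVA, and the only WT inflamed library above the WT range was replicate 2. The interaction was 1.26 (SE 0.27, 95% interval 0.70 to 1.82, adjusted p = 0.476) with all libraries and 1.52 (SE 0.11, 95% interval 1.29 to 1.75, adjusted p = 4.29e-06) without it.

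Supt16, which encodes a histone chaperone subunit of the FACT complex, followed the same course. It was at 12.9, 13.7, 13.1 and 17.1 TPM in WT and 38.2, 36, 41.5 and 31.6 TPM in KO LECs. After OVA the values were 15.8, 5.36, 13.7 and 12.9 TPM in WT and 81, 80.6, 72.3 and 87.1 TPM in KO LECs. No KO library overlapped with a WT library of the same state, and only KO LECs moved to a new range after OVA. The interaction was 1.42 (SE 0.33, 95% interval 0.72 to 2.12, adjusted p = 0.485) with all libraries and 1.11 (SE 0.16, 95% interval 0.77 to 1.45, adjusted p = 0.0257) without WT inflamed replicate 2, in which this gene was the lowest of all.

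Pttg1 encodes securin, which blocks the separation of sister chromatids until anaphase. It was at 174, 214, 205 and 184 TPM in WT LECs and 25.1, 28.2, 24.4 and 17.1 TPM in KO LECs, and after OVA at 119.8, 174, 177 and 114 TPM in WT and 46.1, 41, 53.3 and 36.8 TPM in KO LECs. The genotypes were far apart in both states, and the distance was smaller after OVA. KO minus WT was -3.0 at steady state and -1.69 after OVA, which gave an interaction of 1.31 (SE 0.25, 95% interval 0.77 to 1.85, adjusted p = 0.347) with all libraries and 1.40 (SE 0.24, 95% interval 0.90 to 1.90, adjusted p = 0.0465) without the deviating one.

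Tmem218, a gene of the primary cilium's transition zone, was called between the genotypes at steady state and not after OVA. It was at 314, 269, 229.5 and 301 TPM in WT LECs and at 71.7, 79.2, 92.1 and 66.6 TPM in KO LECs. After OVA the values were 39.2, 65.4, 56.1 and 97.1 TPM in WT and 52.3, 56.1, 54.6 and 66.1 TPM in KO LECs, which overlapped. It fell in WT LECs, with a response of -2.16 (SE 0.21, adjusted p = 6.79e-06), and its response in KO LECs was -0.42 (SE 0.21, adjusted p = 0.142). The interaction was 1.74 (SE 0.29, 95% interval 1.11 to 2.36, adjusted p = 0.169) with all libraries and 1.77 (SE 0.29, 95% interval 1.14 to 2.39, adjusted p = 0.0465) without WT inflamed replicate 2. It was also called when WT inflamed replicate 4, the highest of that group, was left out, at 1.95 (adjusted p = 0.0104).

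Snord118 encodes the U8 small nucleolar RNA, which guides the processing of ribosomal RNA. It was at 728, 693, 556 and 752 TPM in WT and 548, 710, 598 and 509 TPM in KO LECs, which overlapped. In the inflamed state it was at 107, 466, 122 and 88.3 TPM in WT and 206, 193, 186 and 275 TPM in KO LECs. It fell in both genotypes, and without WT inflamed replicate 2, which kept 466 TPM, it was lower in all WT than in all KO inflamed libraries. The interaction was 0.69 (SE 0.52, 95% interval -0.42 to 1.79, adjusted p = 0.668) with all libraries and 1.22 (SE 0.21, 95% interval 0.78 to 1.66, adjusted p = 0.0465) without that library. This gene is short, and a TPM of a short gene stands for fewer reads than a TPM of a long one.

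Rnase1, a secreted ribonuclease of endothelium, was the only gene called lower. It was listed at 0 TPM in all 8 WT libraries of both states. It was at 2.11, 3.2, 1.76 and 2.83 TPM in KO LECs and 0.133, 0, 0.572 and 0.172 TPM in KO inflamed LECs, which did not overlap. Its interaction was -1.51 (SE 0.22, 95% interval -1.98 to -1.04, adjusted p = 0.0573) with all libraries, the smallest adjusted p of that fit, and -1.51 (SE 0.24, 95% interval -2.02 to -1.0, adjusted p = 0.0465) without WT inflamed replicate 2. Leaving out KO inflamed replicate 3, the highest of its group, gave -1.64 (adjusted p = 0.0119). The value rests on the KO libraries alone. The gene was tested only because the 4 KO steady state libraries passed 1 TPM while no other library did, so a lower level after OVA in KO LECs came with its selection.

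**Figure D2:**
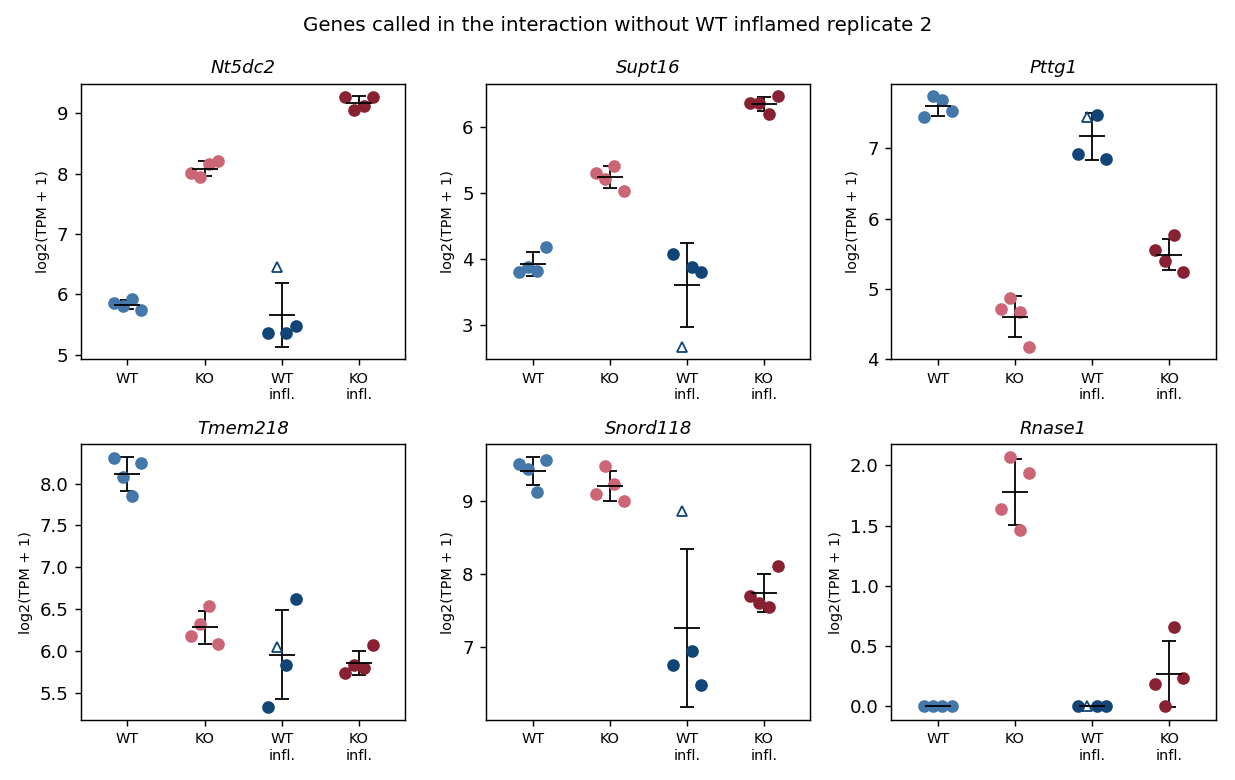
Level of the 6 genes called in the interaction without WT inflamed replicate 2, as log2(TPM + 1) on axes that do not start at 0. Each point is a library, the open triangle is WT inflamed replicate 2, and bars give the mean and SD of 4 libraries. Nt5dc2 and Supt16 are highest in KO inflamed LECs, Tmem218 is high only in WT LECs, and Rnase1 is above 0 only in libraries of KO mice, highest at steady state.

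Several of these genes lie near Stab1 or on its chromosome. Nt5dc2 lies at chr14:31131089-31139124 and Stab1 at chr14:31139017-31168651 (GRCm38.p6 coordinates from RefSeq), so their annotated ends overlap. The library kit does not record the strand, and reads in the overlap cannot be assigned to 1 of them. Rnase1 at chr14:51145002-51146767 and Supt16 at chr14:52160419-52197239 lie 19.99 and 21.02 Mb from Stab1 on the same chromosome. Thus 3 of the 6 genes, Rnase1 included, were on chromosome 14, which held 3.44% of the tested genes that have a position. In KO mice of a mixed background the deletion of Stab1 and the DNA inherited along with it cannot be told apart. Pttg1 is at chr11:43420244-43427463, Tmem218 at chr9:37208223-37223228 and Snord118 at chr11:69073426-69073562.

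The genes next in line missed the threshold in both fits, and they were singled out after their values were seen. Fcgr2b, the inhibitory Fc receptor for IgG, was at 109, 93.2, 60.9 and 85.3 TPM in WT and 22.1, 29.4, 19.9 and 22.1 TPM in KO LECs. After OVA it was at 40.5, 42.6, 37.8 and 30.7 TPM in WT and 32.4, 37.1, 17.6 and 27.3 TPM in KO LECs. The WT libraries were above all KO libraries at steady state, and the inflamed groups overlapped. The gene fell in WT LECs at -1.16 (SE 0.22, adjusted p = 0.00214), while its response in KO LECs was 0.25 (SE 0.22, adjusted p = 0.403) and its interaction 1.40 (SE 0.31, adjusted p = 0.485) with all libraries and 1.46 (SE 0.31, adjusted p = 0.148) without WT inflamed replicate 2.

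Ly6i, a GPI-anchored protein of the Ly6 family, had an interaction below 0. It was at 62.2, 48.1, 53 and 57 TPM in WT, 88, 108, 91.7 and 103 in KO, 42.3, 32.6, 23.7 and 32.7 in WT inflamed and 21.3, 28.4, 28.7 and 17.2 in KO inflamed LECs. The KO libraries were above all WT libraries at steady state, the inflamed groups overlapped, and the response was called lower in KO LECs only. The interaction was -1.26 (SE 0.26, adjusted p = 0.465) with all libraries and -1.25 (SE 0.25, adjusted p = 0.127) without WT inflamed replicate 2. Pcp4l1 was at 9.78 to 15.9 TPM in WT LECs and at most 3.55 TPM in every other group, with an interaction of 1.93 (SE 0.41, adjusted p = 0.476). Fam57a reached an adjusted p of 0.0465 without WT inflamed replicate 2, but its value of 0.55 was under the fold threshold.

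A further gene shows how short annotations behave in these tables. Mir7658, which lies within Klhl17 and spans 57 bases, had the highest interaction of all at 8.15 (SE 1.46, 95% interval 5.04 to 11.26, adjusted p = 0.205). It was at 0, 37.4, 0 and 65 TPM in WT and 33, 42, 34.9 and 48.1 TPM in KO inflamed LECs, and it was listed at 0 in all KO and all WT inflamed libraries. Reads of this gene and of Klhl17 cannot be told apart here, and the size of a value that starts or ends at 0 depends on the pseudocount.

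Type I interferon-stimulated genes had a lower median response in KO than in WT LECs, although none was called in the interaction by limma with or without WT inflamed replicate 2. The list had 37 tested members. Of these, 6 and 25 had an unadjusted p under 0.05 in these fits, against 4.27% and 7.10% of all genes. With all libraries 18 members rose in WT LECs and 11 in KO LECs, where 1 fell. Of all genes tested 3.02% rose in WT and 5.15% in KO LECs with all libraries. Without WT inflamed replicate 2 the counts were 31 in WT and 16 in KO LECs, with 1 lower in each. The shares of all genes that rose were then 6.19% and 6.2%. With median ratio rescaling of all libraries 24 rose in WT and 6 in KO LECs, where 1 fell. The shares of all genes that rose were then 3.45% and 3.08%. The median response of the list was 1.22 in WT and 0.94 in KO LECs with all libraries, and 1.62 and 0.94 without that library. The median interaction was -0.34 against 0.23 for all genes, and -0.62 against 0.061 without it. Below 0 were 27 of 37 members (73%, against 27% of all genes tested), and 36 of 37 without it (97.3%, against 37.8%).

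The difference lay at both ends of the response. At steady state the list's median KO minus WT difference was 0.24, with KO LECs higher, against -0.041 for all genes. After OVA it was -0.025 with all libraries and -0.40 without WT inflamed replicate 2, against 0.192 and 0.016 for all genes. The mean level over the list, in log2(TPM + 1), was 5.75, 6.02, 5.93 and 5.69 in the WT libraries and 6.23, 6.25, 6.10 and 5.87 in the KO libraries. After OVA it was 7.43, 5.93, 7.39 and 7.33 in WT and 7.19, 6.51, 7.26 and 7.03 in KO LECs. WT inflamed replicate 2 was at the level of steady state LECs, KO inflamed replicate 2 was the lowest of its group, and the other 3 WT inflamed libraries were above all KO inflamed libraries.

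Isg15, an interferon-induced ubiquitin-like protein that is attached to many targets, was one of the 4 most abundant members. It was at 262, 348, 368 and 221 TPM in WT and 457, 530.2, 400.5 and 386 TPM in KO LECs. In inflamed LECs it was at 899, 777, 974 and 948 TPM in WT and 777, 422, 906 and 655 TPM in KO LECs. The KO libraries were higher than all WT libraries at steady state, and overlapped with them after OVA. It rose in WT LECs at 1.61 (SE 0.21, adjusted p = 0.000104), its response in KO LECs was 0.59 (SE 0.21, adjusted p = 0.0539), and the interaction was -1.01 (SE 0.30, 95% interval -1.65 to -0.38, adjusted p = 0.668) with all libraries and -1.08 (SE 0.29, 95% interval -1.71 to -0.46, adjusted p = 0.372) without WT inflamed replicate 2.

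Irf7, the transcription factor that amplifies type I interferon, was at 312, 485, 600.2 and 324 TPM in WT and 514, 489, 503 and 479 TPM in KO LECs. The values after OVA were 764, 453, 829 and 1005 TPM in WT and 669, 451, 849 and 562 TPM in KO LECs. All 4 groups overlapped, and its interaction was -0.51 (SE 0.35, 95% interval -1.26 to 0.24, adjusted p = 0.668) with all libraries and -0.74 (SE 0.29, 95% interval -1.36 to -0.12, adjusted p = 0.6) without WT inflamed replicate 2. Bst2, or tetherin, which holds budding virus at the cell surface, had an interaction of -0.60 (SE 0.19, 95% interval -1.0 to -0.20, adjusted p = 0.668). Its levels were 1571 to 2198 TPM in WT, 2014 to 2181 in KO, 2092 to 2640.1 in WT inflamed and 1431 to 2191 in KO inflamed LECs, and of the inflamed libraries only the highest KO one reached into the WT range. Ifitm3, which blocks viral entry, was among the most abundant transcripts at 7386 to 9069.5 TPM in WT and 9644 to 13400 TPM in KO inflamed LECs. These groups differ in both genotype and state, so the ranges do not compare the genotypes. The interaction of Ifitm3 was -0.36 (adjusted p = 0.668).

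The immune GTPases and other genes that interferon-gamma induces depended more on the deviating library. Of 21 tested members, 7 rose in WT and 9 in KO LECs with all libraries, 18 and 15 without WT inflamed replicate 2, and 13 and 7 with median ratio rescaling. The shares of all genes that rose were 3.02% and 5.15%, 6.19% and 6.2%, and 3.45% and 3.08%. The median interaction was 0.074 with 9 of 21 below 0 (42.9%, against 27% of all genes). Without WT inflamed replicate 2 it was -0.49 with 20 of 21 below 0 (95.2%, against 37.8%). The median responses without that library were 1.68 in WT and 1.19 in KO LECs. Igtp, an immunity-related GTPase, was at 197 to 227 TPM in WT and 208 to 221 TPM in KO LECs, and after OVA at 674, 264, 677 and 674 TPM in WT and 655, 331, 556 and 472 TPM in KO LECs. The lowest library of each inflamed group was its replicate 2, and the other 3 WT libraries exceeded all KO libraries. Its interaction was -0.15 (SE 0.37, 95% interval -0.93 to 0.63, adjusted p = 0.844) with all libraries and -0.49 (SE 0.21, 95% interval -0.93 to -0.043, adjusted p = 0.647) without the WT replicate.

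Ifi47, another such GTPase, was at 612, 274, 652 and 557 TPM in WT inflamed and 538, 362, 514 and 439 TPM in KO inflamed LECs, with an interaction of -0.091 (SE 0.30, adjusted p = 0.883) and of -0.38 (SE 0.15, adjusted p = 0.6) without WT inflamed replicate 2. Irf1, a transcription factor of this pathway, had -0.21 (SE 0.29, adjusted p = 0.735) and -0.47 (SE 0.15, adjusted p = 0.455). Cxcl10, the chemokine that draws activated T cells, rose in WT LECs at 1.16 (SE 0.22, adjusted p = 0.00199), and its response in KO LECs was 0.71 (SE 0.22, adjusted p = 0.029). Its inflamed levels overlapped fully, at 1281 to 2129 TPM in WT and 1055 to 2138 TPM in KO LECs, and its interaction was -0.44 (SE 0.31, adjusted p = 0.668).

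The interferon medians also moved with KO inflamed replicate 2. Leaving it out moved the median interaction of the type I list from -0.34 to -0.13 and that of the interferon-gamma list from 0.074 to 0.23. Leaving out both replicates 2 of the inflamed groups, an alternative chosen after their values were seen, gave -0.45 and -0.35 against 0.043 for all genes, with 35 of 37 and 19 of 21 members below 0. Median ratio rescaling of all libraries gave -0.62 and -0.16 against -0.018 for all genes.

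Promoter stretches with a motif that interferon-activated factors bind are shown for 4 of these genes, so that the sequence stands beside their responses, from RefSeq promoters on GRCm38.p6. Each window spans 250 bases before to 50 after a gene's start and was searched on both strands for GAAANNGAA, the core of the interferon-stimulated response element, with overlapping matches counted. A match was present in 9.8% of the genes that have a promoter there. Only 27 of 37 and 14 of 21 list members had an entry there, too few to give a share for the lists. Capitals mark the matches and 20 bases are printed on each side.
Isg15: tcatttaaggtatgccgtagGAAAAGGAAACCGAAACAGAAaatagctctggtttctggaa
Bst2: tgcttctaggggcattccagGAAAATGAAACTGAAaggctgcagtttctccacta
Igtp: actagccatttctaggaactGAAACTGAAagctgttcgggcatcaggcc
Cxcl10: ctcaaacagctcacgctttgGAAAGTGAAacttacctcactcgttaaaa
The stretches lie at chr4:156200856-156200916 (minus strand), chr8:71537568-71537622 (minus strand), chr11:58199502-58199550 (plus strand) and chr5:92349074-92349122 (minus strand). Isg15 held 3 overlapping matches and Bst2 held 2, and Igtp and Cxcl10 held 1 each, starting 34 and 213 bases before the start site. Ifitm3 held 2 matches, which start 2 and 19 bases past its start site and are not printed. The windows of Irf7, Ifi47 and Irf1 did not hold these letters. Matches were found in genes with a lower and a near-equal inflamed level in KO LECs alike, and a match is a description of the sequence only.

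**Figure D3:**
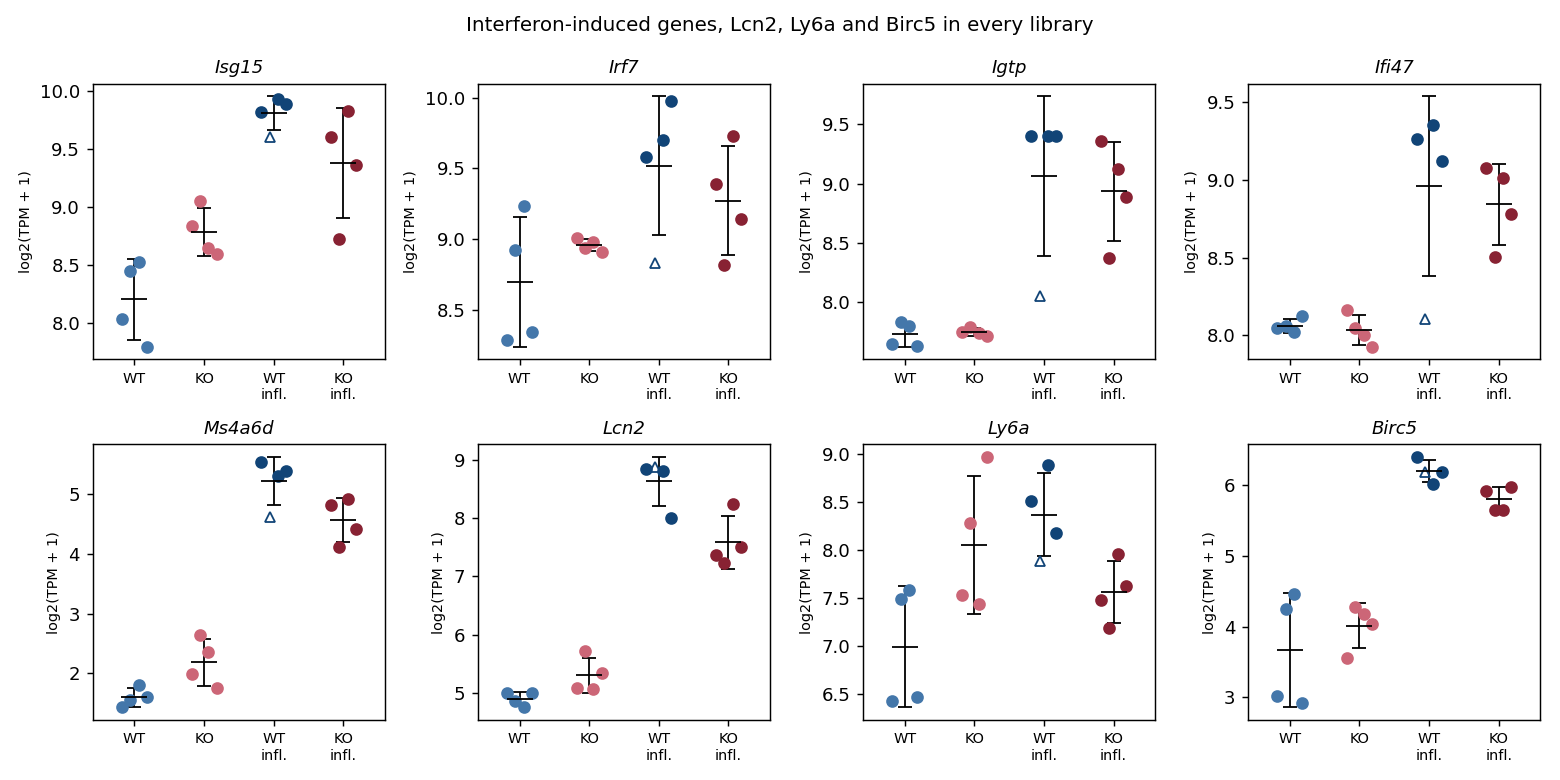
Level of 8 genes by library as log2(TPM + 1), on axes that do not start at 0; each point is a library, the open triangle is WT inflamed replicate 2, and bars give the mean and SD of 4 libraries. Isg15 starts higher in KO than in WT LECs, Igtp and Ifi47 start level and end higher in 3 of 4 WT inflamed libraries, and 3 of 4 KO inflamed libraries are below all WT inflamed libraries for Lcn2.

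Lcn2, Ms4a6d and Ms4a4d rose in both genotypes, with lower estimates in KO LECs, and were singled out after their values were seen. For Ms4a4d the KO call was lost with median ratio rescaling, at 0.91. Lcn2 encodes lipocalin-2, an iron-siderophore trap made by neutrophils and by inflamed endothelium. It was at 30.8, 28, 25.9 and 31 TPM in WT and 33, 51.4, 32.5 and 39.6 TPM in KO LECs, and after OVA at 460.2, 468, 449 and 256 TPM in WT and 164, 149, 302 and 182 TPM in KO LECs. The inflamed groups overlapped only through WT replicate 4 and KO replicate 3. The response was 3.73 in WT and 2.28 in KO LECs, both called, with an interaction of -1.45 (SE 0.33, 95% interval -2.15 to -0.76, adjusted p = 0.485) that was not called. Without WT inflamed replicate 2 it was -1.37 (SE 0.32, adjusted p = 0.264).

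Ms4a6d and Ms4a4d encode membrane proteins of a family studied mainly in leukocytes. Ms4a6d was at 1.69 to 2.5 TPM in WT and 2.37 to 5.26 TPM in KO LECs, and after OVA at 45.7, 23.7, 38.8 and 41.1 TPM in WT and 27.2, 16.3, 29.2 and 20.4 TPM in KO LECs. Its interaction was -1.25 (SE 0.34, adjusted p = 0.668) with all libraries and -1.44 (SE 0.29, adjusted p = 0.127) without WT inflamed replicate 2, and that of Ms4a4d was -1.03 (SE 0.49, adjusted p = 0.668) and -1.49 (SE 0.29, adjusted p = 0.111). Ly6a, or Sca-1, an interferon-inducible surface protein of endothelium, was at 85.1, 179, 189.7 and 87.2 TPM in WT and 184, 308, 172 and 499 TPM in KO LECs. In the inflamed state it was at 363, 235, 472 and 287 TPM in WT and 177, 144, 247 and 196 TPM in KO LECs. It rose in WT LECs, while the KO groups overlapped and their libraries spread widely, and the interaction was -1.86 (SE 0.49, 95% interval -2.92 to -0.82, adjusted p = 0.668).

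Genes of high endothelial venules (HEVs) and blood endothelium had a higher median in KO than in WT LECs at steady state. Their mean level, in log2(TPM + 1), was 5.55, 5.58, 5.59 and 5.40 in WT, 5.85, 6.14, 5.79 and 5.93 in KO, 6.32, 5.35, 5.54 and 5.48 in WT inflamed and 5.47, 5.99, 5.75 and 5.48 in KO inflamed LECs. All KO libraries were above all WT libraries at steady state, and the inflamed groups overlapped. Of 21 tested members, 4 rose and 1 fell in WT LECs, and 1 rose and 4 fell in KO LECs. Over all genes 3.02% rose and 2.59% fell in WT LECs, and 5.15% rose and 2.92% fell in KO LECs. The median KO minus WT difference was 0.47 at steady state, against -0.041 for all genes. After OVA it was 0.14, below the 0.192 of all genes, and -0.084 with median ratio rescaling. The median interaction was -0.36, or -0.50 without WT inflamed replicate 2, against 0.23 and 0.061 for all genes. Limma called none in the interaction, where 7 of the 21 members had an unadjusted p under 0.05, against 4.27% of all genes. Madcam1, the mucosal addressin, was at 356, 344, 422 and 404 TPM in WT and 851, 899, 855 and 762 TPM in KO LECs, and after OVA at 310.1, 395, 227 and 301 TPM in WT and 469, 470.1, 382 and 364 TPM in KO LECs. The KO libraries were above all WT libraries at steady state. After OVA only WT inflamed replicate 2, at 395 TPM, reached into the KO inflamed range. The remaining WT inflamed libraries were below all KO inflamed libraries. Its interaction was -0.68 (SE 0.20, 95% interval -1.11 to -0.24, adjusted p = 0.668), not called.

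Glycam1, an HEV mucin that carries L-selectin ligands, was at 2436, 1948, 2070.4 and 1868 TPM in WT and 4454, 5190.5, 3873 and 4239.8 TPM in KO LECs. It fell in KO LECs at -1.13 (SE 0.28, adjusted p = 0.0106) and its response in WT LECs was -0.26 (SE 0.28, adjusted p = 0.666), with an interaction of -0.88 (SE 0.40, 95% interval -1.72 to -0.03, adjusted p = 0.668). The list is named for vessels that the podoplanin gate should leave out, but its member Cldn5 is also on the LEC identity list. Cells of another kind in the sort and a changed level per cell in LECs cannot be told apart in bulk RNA. For every gene in these libraries, fewer cells of a type and less RNA per cell give the same value.

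Neutrophil and granule genes had the lowest median interaction of the described lists, at -0.94 over 8 tested members and -0.89 without WT inflamed replicate 2, with none called by limma and 3 at an unadjusted p under 0.05. The mean level over the list, in log2(TPM + 1), was 3.15, 2.85, 2.82 and 2.56 in WT, 3.85, 3.99, 3.89 and 3.39 in KO, 2.69, 2.95, 3.42 and 3.05 in WT inflamed and 2.73, 2.58, 3.24 and 3.32 in KO inflamed LECs. The KO libraries were above all WT libraries at steady state, and the inflamed groups overlapped. S100a9 was at 4.06, 3.11, 5.74 and 1.41 TPM in WT and 17.4, 17, 16.8 and 11.3 TPM in KO LECs, and after OVA at 0.237, 4.04, 10 and 0.589 TPM in WT and 0.398, 0.168, 2.58 and 4.48 TPM in KO LECs. The KO libraries were above all WT libraries at steady state, and the inflamed groups overlapped. S100a8 lay between 14.5 and 34.3 TPM in KO LECs, and between 0.293 and 10.2 TPM in KO inflamed LECs. Both fell in KO LECs, at -2.63 (SE 0.72, adjusted p = 0.0179) for S100a8 and -2.79 (SE 0.62, adjusted p = 0.00527) for S100a9, and their interactions were -2.05 (SE 1.02, adjusted p = 0.668) and -2.38 (SE 0.87, adjusted p = 0.668). Mmp9 had an interaction of -0.12. The part of neutrophil RNA in the other results was not tested.

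Genes of cell division rose in both genotypes. Of 30 mitosis genes, 26 rose in WT and 26 in KO LECs, against 3.02% and 5.15% of all genes. Their median responses were 1.61 and 1.78, against -0.025 and 0.227 for all genes. The median interaction was 0.098 with 12 of 30 below 0 (40%, against 27% of all genes). Without WT inflamed replicate 2 it was -0.23 with 27 of 30 below 0 (90.0%, against 37.8% of all genes). The sign of the list's median thus turned with 1 library, but the median was below the 0.23 and 0.061 of all genes in both fits. With median ratio rescaling of all libraries it was -0.098 against -0.018. Limma called no member in the interaction. Birc5, or survivin, was at 7.15, 18.1, 21.1 and 6.58 TPM in WT and 10.8, 18.4, 17.2 and 15.4 TPM in KO LECs, and after OVA at 83.4, 72.1, 64 and 71.7 TPM in WT and 59.4, 49.3, 49.3 and 61.7 TPM in KO LECs. All inflamed libraries were above all steady state libraries, and the 4 KO inflamed libraries were below the 4 WT inflamed ones. Its interaction was -0.75 (SE 0.41, 95% interval -1.64 to 0.13, adjusted p = 0.668), not called.

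Ube2c, which loads the anaphase-promoting complex, rose by 2.12 in WT and 1.78 in KO LECs, and Ccnb2, a mitotic cyclin, by 1.66 and 1.61. Their interactions were -0.34 (SE 0.31, adjusted p = 0.668) and -0.057 (SE 0.37, adjusted p = 0.945). Cks2 was called only in WT LECs, at 1.05 (SE 0.14, adjusted p = 9.87e-05) against 0.65 (SE 0.14, adjusted p = 0.00377) in KO LECs, and its interaction of -0.40 (SE 0.19, adjusted p = 0.668) does not show that the genotypes differed. The WT response of Cks2 was 0.95 without WT inflamed replicate 2, under the fold threshold, and it was called in neither genotype. Of 33 genes of DNA replication, 13 rose in WT and 22 in KO LECs, 22 in each without WT inflamed replicate 2, and 14 and 15 with median ratio rescaling. In these settings 3.02% and 5.15%, 6.19% and 6.2%, and 3.45% and 3.08% of all genes rose. Mcm6, a subunit of the replicative helicase, was at 137, 37.3, 123 and 152 TPM in WT inflamed and 136, 116, 120.3 and 134 TPM in KO inflamed LECs, and the other WT inflamed libraries overlapped with the KO inflamed ones.

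**Figure D4:**
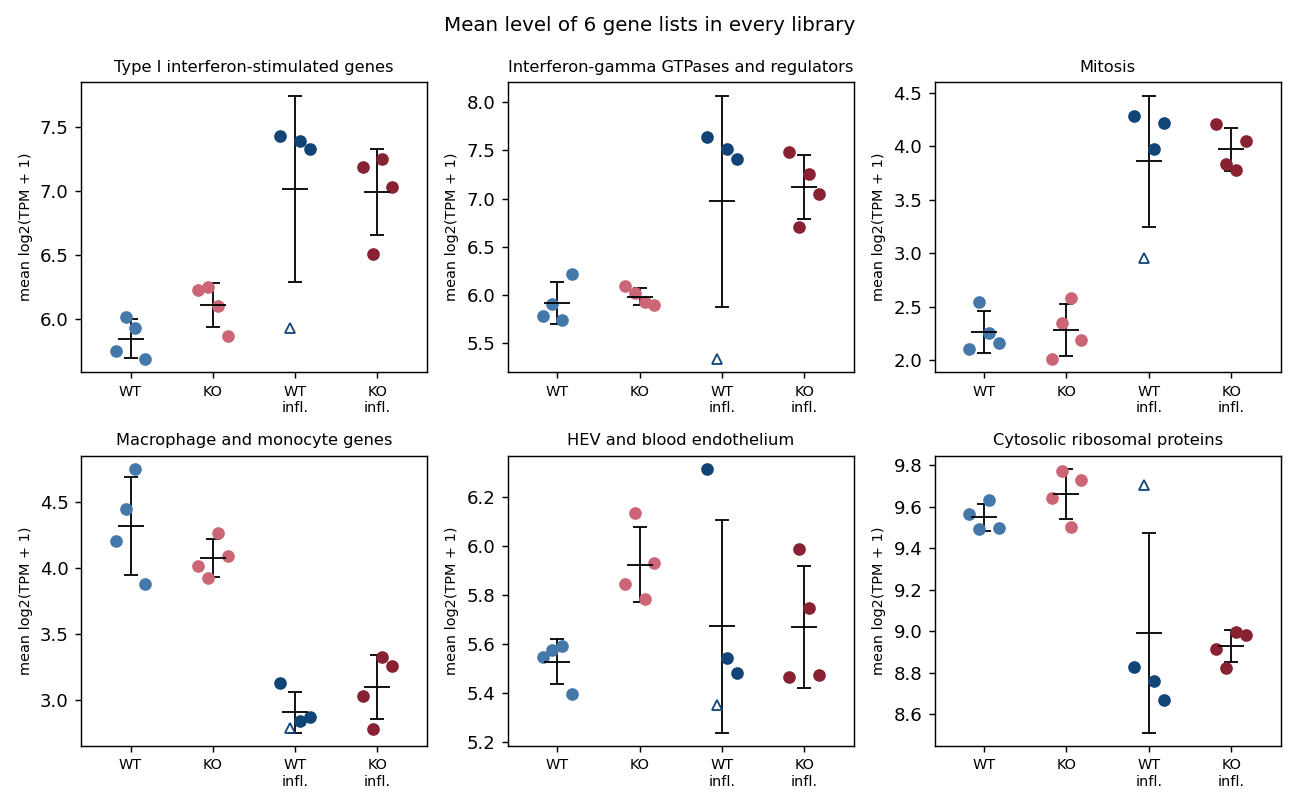
Mean log2(TPM + 1) of the tested members of 6 gene lists in each library, on axes that do not start at 0; points are libraries, the open triangle is WT inflamed replicate 2, and bars give the mean and SD of 4 libraries. Mitosis genes are higher and macrophage genes lower after OVA in both genotypes, and WT inflamed replicate 2 is lowest of its group for both interferon lists and highest for ribosomal proteins.

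Many genes of the macrophage and monocyte list and of the MHC class II list fell in both genotypes. Which cells carried these transcripts was not tested. Of 19 macrophage and monocyte genes, 10 fell in WT and 9 in KO LECs, against 2.59% and 2.92% of all genes. Their median responses were -1.42 and -1.0, and their median interaction was 0.45, against 0.23 for all genes. Marco, a scavenger receptor of sinus macrophages and LN LECs, was at 5531 to 5941 TPM in WT and 4528 to 6206 TPM in KO LECs. After OVA it was at 863, 1061, 1526 and 1784 TPM in WT and 1804, 1828, 1900.2 and 1926 TPM in KO LECs. It fell in both, all 4 KO inflamed libraries were above all 4 WT inflamed ones, and the interaction was 0.64 (SE 0.24, 95% interval 0.12 to 1.16, adjusted p = 0.668).

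Lyz2, the lysozyme of myeloid cells, fell in both genotypes. It was at 329.7, 423, 845 and 282 TPM in WT and 227, 296, 346 and 379 TPM in KO LECs, and after OVA at 63, 59.6, 46.2 and 41.6 TPM in WT and 76.5, 70.8, 110.2 and 107 TPM in KO LECs. The inflamed libraries of the genotypes did not overlap, while the steady state ones did, and the interaction was 1.25 (SE 0.40, 95% interval 0.40 to 2.10, adjusted p = 0.668). Cd14, an LPS coreceptor, was the only member of the list called higher, at 1.68 in WT and 1.41 in KO LECs. C1qb had an interaction of -0.31.

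Of 11 MHC class II genes, 7 fell in WT and 6 in KO LECs, against 2.59% and 2.92% of all genes, with medians of -1.10 and -1.24. H2-Ab1, a class II chain, was at 161, 179, 199 and 172 TPM in WT and 168, 151, 168 and 184 TPM in KO LECs. In inflamed LECs it was at 52.4, 65.9, 78.8 and 50.7 TPM in WT and 41.9, 50.1, 59.5 and 36.2 TPM in KO, so the states did not overlap. Cd74, the invariant chain, had responses of -1.23 and -1.43. Their interactions were -0.31 (SE 0.23, 95% interval -0.80 to 0.17, adjusted p = 0.668) and -0.20 (SE 0.17, 95% interval -0.57 to 0.16, adjusted p = 0.668), and both intervals lay within 1 of 0. The class II list had a median interaction of -0.155 with all libraries, -0.171 without WT inflamed replicate 2 and -0.412 with median ratio rescaling. For the 23 tested MHC class I and peptide loading genes it was -0.046, -0.167 and -0.34, against 0.23, 0.061 and -0.018 for all genes. Of these 23 genes 15, 20 and 21 were below 0, against 27%, 37.8% and 6609 of 12652 of all genes. Limma called none of them, and 3, 6 and 1 had an unadjusted p under 0.05.

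Lymphocyte genes had median responses below 0 in both genotypes, with more members called lower in KO LECs. Over all genes tested 2.92% fell in KO LECs and 2.59% in WT LECs. Of 14 T and NK cell genes, 0 rose and 2 fell in WT, and 1 rose and 6 fell in KO LECs, or 1 and 1 in WT and 1 and 7 in KO without WT inflamed replicate 2. Their median responses were -0.70 in WT and -0.83 in KO LECs with all libraries. Their median interaction was -0.31, or -0.52 without that replicate, against 0.23 and 0.061 for all genes. Limma called none of them in the interaction. Thy1, which also marks stroma, was at 166, 153, 133 and 102 TPM in WT and 56.1, 44.3, 56.2 and 47.1 TPM in KO LECs, and after OVA at 83.4, 119, 62.1 and 69.7 TPM in WT and 47.3, 46.2, 71.1 and 69.5 TPM in KO LECs. Its levels were apart between the genotypes at steady state and overlapped after OVA, and its interaction was 0.92 (SE 0.30, adjusted p = 0.668). Of 12 B cell genes, 1 rose and 2 fell in WT, and 1 rose and 4 fell in KO LECs, or 2 and 3 in WT without WT inflamed replicate 2. Their median responses were -0.57 in WT and -0.80 in KO LECs with all libraries. Their median interaction was -0.084, or -0.109 without that replicate, and limma called none of them in it. Cd79a, which encodes a signalling subunit of the B cell receptor and was singled out after its values were seen, was at 10.1 to 13.6 TPM in WT, 17 to 29.2 in KO, 4.66 to 16.4 in WT inflamed and 3.85 to 6.7 in KO inflamed LECs. Its interaction was -1.37 (SE 0.40, adjusted p = 0.668) with all libraries and -1.61 (SE 0.34, adjusted p = 0.148) without WT inflamed replicate 2. Its partner Cd79b had 0.025 (SE 0.28, adjusted p = 0.966).

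Ackr2, Tlr3 and Csf2, which the study names in KO LECs after OVA, were called higher in the KO response, and their interactions were not called. The call of Csf2 was lost with median ratio rescaling, at 0.90 (adjusted p = 0.089). Ackr2, an atypical receptor that clears inflammatory CC chemokines, was at 230.1, 308, 195 and 208 TPM in WT and 134, 117, 183 and 137 TPM in KO LECs. In inflamed LECs it was at 544, 186, 631 and 578 TPM in WT and 527, 442, 619 and 614 TPM in KO LECs. Apart from WT inflamed replicate 2 the inflamed ranges overlapped, and KO LECs began lower. The interaction was 1.03 (SE 0.43, 95% interval 0.12 to 1.94, adjusted p = 0.668) with all libraries and 0.62 (SE 0.22, 95% interval 0.14 to 1.09, adjusted p = 0.562) without that replicate, when the response was called in WT LECs too, at 1.33.

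Tlr3, the sensor of double-stranded RNA, was at 54.8, 5.55, 43.1 and 42 TPM in WT inflamed and 45.2, 30.5, 43.6 and 44.7 TPM in KO inflamed LECs, after 12.6 to 20.5 and 12.6 to 15.9 TPM at steady state. The interaction was 0.59 (SE 0.68, 95% interval -0.84 to 2.03, adjusted p = 0.696) with all libraries and -0.12 (SE 0.23, 95% interval -0.61 to 0.37, adjusted p = 0.946) without WT inflamed replicate 2, so 1 library turned its sign, and the WT response was then called too, at 1.55. Csf2, which encodes the growth factor GM-CSF, was at 3.72, 11.5, 9.22 and 12.2 TPM in WT and 5.06, 5.57, 2.94 and 4.52 TPM in KO LECs, and after OVA at 6.88, 5.79, 15.2 and 4.32 TPM in WT and 10.2, 13.1, 16.9 and 6.03 TPM in KO LECs. All ranges but those of KO and KO inflamed LECs overlapped, and the interaction was 1.33 (SE 0.54, 95% interval 0.17 to 2.48, adjusted p = 0.668) with all libraries and 1.23 (SE 0.55, 95% interval 0.064 to 2.40, adjusted p = 0.675) without WT inflamed replicate 2.

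Genes of LEC identity had the same counts of calls in both genotypes once the deviating library was left out. Of 25 identity genes, 0 rose and 3 fell in WT LECs and 3 rose and 3 fell in KO LECs, and without WT inflamed replicate 2 both genotypes had 4 and 3. Of all genes 3.02% rose and 2.59% fell in WT, and 5.15% and 2.92% in KO LECs, with all libraries. Without that replicate these shares were 6.19% and 2.98% in WT, and 6.2% and 3.09% in KO LECs. Equal counts do not show that the same genes were called or that the responses were equal. The median interaction of the list was 0.48 with that replicate and 0.15 without it, against 0.23 and 0.061 for all genes. Limma called no member in the interaction in either fit. An unadjusted p under 0.05 was reached by 6 of 25 members with it and 7 without it, against 4.27% and 7.10% of all genes. Lyve1, the hyaluronan receptor of LECs, was at 1517, 1388, 1131 and 1719.7 TPM in WT and 1201, 1216, 1361 and 1146 TPM in KO LECs, and after OVA at 3115, 1466, 3618 and 3711 TPM in WT and 3625, 3392, 4352 and 4651 TPM in KO LECs. Both genotypes went up apart from WT replicate 2, and the interaction was 0.72 (SE 0.33, 95% interval 0.015 to 1.42, adjusted p = 0.668) with all libraries and 0.41 (SE 0.18, 95% interval 0.028 to 0.78, adjusted p = 0.662) without it.

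Flt4, the receptor for VEGF-C, had an interaction of 0.59 (SE 0.39, adjusted p = 0.668), and Stab2, the paralog of Stab1, had 0.73 (SE 0.42, adjusted p = 0.668). Without WT inflamed replicate 2 these were 0.20 and 0.33. Ackr4, the scavenger of CCL19 and CCL21 on LECs of the sinus ceiling, fell in both genotypes, at -1.30 in WT and -1.32 in KO LECs, with an interaction of -0.02 (SE 0.50, 95% interval -1.09 to 1.05, adjusted p = 0.987). S1pr1 was called only in KO LECs, at 1.04 against 0.56 in WT LECs, and its interaction was 0.48, or 0.066 (SE 0.16, 95% interval -0.28 to 0.41, adjusted p = 0.965) without the replicate. Median ratio rescaling brought its KO response to 0.79, which was not called. Il33, an alarmin of stroma, was called in KO LECs at 1.18 (0.92 and not called with rescaling) and in WT LECs at 1.14 without the replicate. Its interaction went from 0.50 to 0.044 (SE 0.18, 95% interval -0.34 to 0.43, adjusted p = 0.978).

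Of 30 genes of basement membrane and matrix, 7 rose in WT and 11 in KO LECs, against 3.02% and 5.15% of all genes. Without WT inflamed replicate 2 the counts were 14 and 13, against 6.19% and 6.2%. The median interaction of the list went from 0.40 to 0.003, and that of all genes from 0.23 to 0.061. Tnc, or tenascin-C, was at 972, 219.9, 1531 and 1334 TPM in WT inflamed and 1567, 1541, 1679.9 and 1491 TPM in KO inflamed LECs, from 501 to 586 and 401 to 642 TPM at steady state. Its interaction was 1.16 (SE 0.59, 95% interval -0.10 to 2.42, adjusted p = 0.668) with all libraries and 0.53 (SE 0.20, 95% interval 0.095 to 0.96, adjusted p = 0.59) without the replicate. Timp3 went from 0.59 to 0.008, while Sparc, for which WT inflamed replicate 2 lay within its group, stood at 0.004 (SE 0.11, 95% interval -0.24 to 0.24, adjusted p = 0.987).

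Ribosomal protein and chaperone genes also depended on this library, with opposite signs. Of 55 cytosolic ribosomal protein genes, 3 fell in WT and 10 in KO LECs, against 2.59% and 2.92% of all genes. Below 0 were 50 of 55 interactions, against 27% of all genes, with a median of -0.18. Without WT inflamed replicate 2 the counts were 12 and 10, against 2.98% and 3.09% of all genes. Then 8 of 55 were below 0, against 37.8%, and the median was 0.05, or -0.011 with median ratio rescaling as well. That rescaling gave 1 lower in WT and 30 in KO LECs with all libraries, against 2.40% and 4.63% of all genes. Under it 55 of 55 interactions were below 0 with a median of -0.47, against 6609 of 12652 genes. Without WT inflamed replicate 2 it gave 28 and 30, against 4.46% and 5% of all genes. Rps27 was at 1417, 3796, 1347 and 1222 TPM in WT inflamed LECs and 1602 to 1676 TPM in KO inflamed LECs, and Rps29 at 1432, 3711, 1303 and 1190.5 and 1464 to 1553 TPM. Hspa5, the main chaperone of the endoplasmic reticulum, was at 2727, 708, 2353 and 2628 TPM in WT inflamed LECs and 2184 to 2501 TPM in KO inflamed LECs. Its interaction went from 0.26 to -0.21 (SE 0.11, 95% interval -0.43 to 0.017, adjusted p = 0.747).

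**Figure D5:**
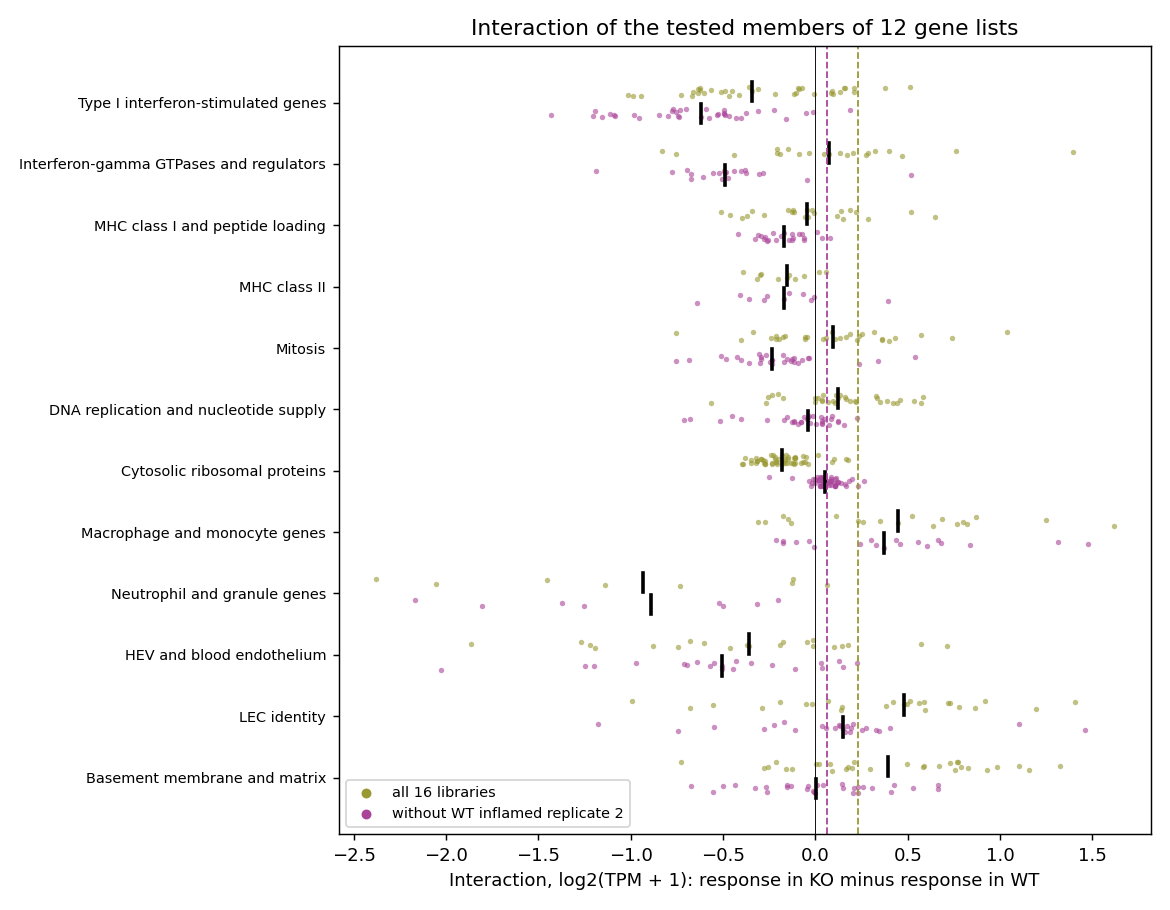
Interaction of the tested members of 12 gene lists, as log2(TPM + 1) response in KO minus response in WT LECs. Points are genes, black bars list medians and dashed lines the medians of all genes (0.23 with all libraries and 0.061 without WT inflamed replicate 2); the interferon lists shift to medians of -0.62 and -0.49 without that library, and ribosomal protein genes cross 0.

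The remaining described groups had median interactions on both sides of 0. Fibroblastic reticular cell genes had a median interaction of 0.20 over 18 tested members, immune checkpoint ligands of 0.26 over 16, leukocyte adhesion and junction genes of 0.098 over 26, and sinus scavenger and lectin receptors of 0.41 over 18. Inflammatory cytokines and chemokines stood at -0.021 over 26, homeostatic chemokines and atypical receptors at 0.052 over 13, and acute phase and iron genes at -0.018 over 17. Without WT inflamed replicate 2 these medians lay between -0.26 and 0.13, and limma called no member of these lists in the interaction in either fit. Median ratio rescaling of all libraries lowers most interactions together, by the shift of the median of all genes from 0.23 to -0.018, so values between these bounds tend to change sign by construction. Under it 8 of the 22 described lists had a median of the opposite sign: the interferon-gamma genes, mitosis, DNA replication, endoplasmic reticulum, fibroblastic reticular cells, checkpoint ligands, adhesion, and homeostatic chemokines. The same rescaling turned the interaction of Sparc to -0.29, of Cd79b to -0.27, of Hspa5 to -0.041 and of Pcna to -0.20.

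The genotypes themselves differed in fewer genes than the states did. KO minus WT was called higher for 41 genes (0.323%) and lower for 33 (0.26%) in inflamed LECs, and for 35 and 30 at steady state. The interaction is the inflamed difference minus the steady state difference. The estimate for Nt5dc2 thus widened, from 2.25 at steady state to 3.52 after OVA. Those for Pttg1 and Madcam1 narrowed (1.14 to 0.47 for Madcam1, with WT inflamed replicate 2 included). Lcn2 went from 0.40 to -1.05. With all libraries none of these interactions was called. Lbp, an acute phase protein that binds LPS, shows close estimates in both genotypes, with responses of 1.48 in WT and 1.37 in KO LECs and an interaction of -0.10 (SE 0.19, 95% interval -0.50 to 0.29, adjusted p = 0.788).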

How the data were processed

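RNA of sorted LN LECs was amplified with SMART-Seq v4, made into libraries with Nextera XT and sequenced single-end on an Illumina HiSeq. Per the labels, STAR 2.5.2b, Subread and limma were used with mm10, while the paper names STAR, salmon and DESeq2. The authors deposited TPM of each gene, which divide reads by gene length and scale each library to a fixed total, so depth is unknown. Of the library columns in the 3 TPM tables, 8 were repeats with identical values. Of 24972 gene names, 26 that a spreadsheet had changed to dates were left out, so 24946 remained. Another 7 deposited tables hold the authors' own fold changes, standard errors, q values and group means, and were not used.

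Values were taken as log2(TPM + 1). Genes that reached 1 TPM in 4 or more of the 16 libraries were fitted with limma 3.58.1 in R 4.3.3 (a mean for each of 4 groups, lmFit, and eBayes with trend), with Benjamini-Hochberg adjustment over all genes tested and 95% intervals. All 5 contrasts came from this fit. A call needed a log2 difference of 1 or more in size with an adjusted p up to 0.05. P-values measure the spread between libraries of pooled mice. The fitting code was tested on simulated data.

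Of 36 gene lists, 22 were described, and members, lists and genes were chosen with earlier results of these data known. Lists were summarised by counts and medians, with no test. The rule for single genes took up to 12 highest and 12 lowest named genes called in the interaction with and without WT inflamed replicate 2 whose highest group mean was at least 5 TPM, up to 8 such genes whose responses were called in opposite directions, up to 4 members of each described list (called first, then highest mean TPM), LEC markers, and Ackr2, Tlr3 and Csf2. The first 2 parts named none. Of the other lists, 3 appear in the closing section. Another 17 genes, and the described lists, were chosen after their values were seen.

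Alternatives were median ratio rescaling, alone and without WT inflamed replicate 2, quantile normalization, a pseudocount of 0.1 or 5 TPM, testing all genes or only those at 5 TPM, limma with array weights or without the trend, a replicate block, calls by adjusted p alone, and leaving out each library. Leaving out WT inflamed replicate 2 together with KO inflamed replicate 2 was added after seeing the data. Positions, promoters and overlaps came from RefSeq on GRCm38. Python 3.11.15 and matplotlib 3.10.9 joined tables and drew figures.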

Additional observations from a re-analysis of the deposited data

Results flagged for a closer look

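Within each group of 4 libraries, the highest and lowest value of 67 described genes were compared with the nearest other library on the scale of log2(TPM + 1) by Dixon's test at the 95% level. Chance alone marks about 1 in 20 groups, and 20 values were marked among 268 groups of a gene and a state, or 7.46%. WT inflamed replicate 2 gave 13 of them. This library stood apart from the other 3 of its group with 186 TPM of Ackr2, 708 TPM of Hspa5, 264 TPM of Igtp, 220 TPM of Irf1, 37.3 TPM of Mcm6, 86.5 TPM of Nt5dc2, 308 TPM of Pecam1, 16.8 TPM of Prox1, 3796 TPM of Rps27, 3711 TPM of Rps29, 267 TPM of S1pr1, 216 TPM of Timp3 and 5.55 TPM of Tlr3. Most of these were low, and those of Rps27, Rps29 and Nt5dc2 were high. Each enters the interaction of that gene through the WT inflamed mean.

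The other 7 values were spread over 6 libraries. Lcn2 was low in WT inflamed replicate 4 at 256 TPM. Among KO inflamed LECs, Cd79a was low in replicate 1 at 3.85 TPM, Hspa5 high in replicate 1 at 2501 TPM, Tlr3 low in replicate 2 at 30.5 TPM and Prox1 low in replicate 3 at 82.5 TPM. At steady state, Pdpn was low in WT replicate 2 at 69.9 TPM and S100a9 low in KO replicate 4 at 11.3 TPM. What set these values apart was not tested.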

How the results depend on the processing

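Of 28 alternatives, 16 called 0 genes in the interaction, as the fit of all libraries did. Leaving out 1 library gave 0 to 5 genes higher and 0 to 1 lower: WT inflamed replicate 2 gave 5 and 1, WT replicate 3 gave 1 (Mir7658) and 1 (Snord67 at -3.96), WT inflamed replicate 4 gave 1 (Tmem218) and 0, and KO inflamed replicate 3 gave 0 and 1 (Rnase1). Median ratio rescaling gave 1 and 1, and 2 and 1 without WT inflamed replicate 2. Quantile normalization gave 1 higher (Supt16), a pseudocount of 5 TPM 1 higher (Pcp4l1) and no filter 2 lower (Rnase1 and Hal). With eBayes without trend there was 1 lower (Rnase1), and without replicate 2 of both inflamed groups 1 higher (Nt5dc2). Limma with array weights gave 8 higher and 3 lower. The 8 were Nt5dc2, Supt16, Pttg1, Tmem218, Snord118, Mir7658, Fcgr2b (1.60, adjusted p = 0.0361) and Pcp4l1 (2.21, adjusted p = 0.0361). The 3 were Rnase1, Rgs4 and Cd79a (-1.87, adjusted p = 0.0361).

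The WT response ranged over 321 to 784 genes higher and 300 to 377 lower when 1 library was left out, and the KO response over 476 to 785 and 331 to 392. KO against WT ranged over 33 to 55 higher and 25 to 44 lower in inflamed LECs, and 25 to 45 and 24 to 44 at steady state. WT calls moved to 191 higher and 145 lower with a pseudocount of 5, to 753 higher with array weights, 786 and 1033 with no fold threshold, 564 lower with rescaling without WT inflamed replicate 2, and 778 higher without both replicates 2. KO calls moved to 390 and 586 with rescaling, 417 and 632 with rescaling without that library, 329 and 186 with a pseudocount of 5, and 1663 and 1132 with no fold threshold. KO against WT in inflamed LECs had 22 higher with a pseudocount of 5 and 27 at a minimum of 5 TPM. At steady state it had 19 higher and 17 lower with a pseudocount of 5, 23 higher at 5 TPM, 53 and 48 with array weights, 53 higher with rescaling without WT inflamed replicate 2, and 55 higher with no fold threshold.

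Of 8466 values of 101 genes under these alternatives, 118 lost and 182 gained a call and 0 called values changed sign. Another 234 changed sign without a call in either setting. Pairing by replicate number was not evident, but weak correlations with 4 libraries per group cannot exclude it. Libraries of equal replicate number carried consecutive sample numbers in their labels. The 24 same-numbered pairs had correlations of -0.135 to 0.179, 1 over 0.1, against -0.272 to 0.267 for pairs of other numbers. Only 3 of 16 libraries correlated best with their own number. With a replicate block the interaction called 0 and 0 genes, the WT response 384 and 323, the KO response 632 and 367, and KO against WT 39 and 29 in inflamed and 32 and 27 in steady state LECs. The depth of each library is unknown, short genes rest on few reads, and 1 of 4 WT inflamed libraries widened the interval of the median gene.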

Other observations

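Of 23 tested genes of cholesterol synthesis, 7 rose in KO and 1 in WT LECs, with a median interaction of 0.23, the same as over all genes tested, of which 5.15% rose in KO and 3.02% in WT LECs. When WT inflamed replicate 2 was left out the counts were 7 and 5, against 6.2% and 6.19% of all genes. The median interaction was then 0.187 with 21 of 23 above 0, against 0.061 and 62.2% above 0 for all genes. With median ratio rescaling of all libraries the counts were 3 and 1, against 3.08% and 3.45% of all genes. The median interaction was then -0.044, against -0.018 for all genes. Limma called no member in the interaction in these fits, and none had an unadjusted p under 0.05. Of 14 tested Toll-like and other pattern receptors, 2 rose in KO and 1 in WT LECs (median interaction 0.37), and 2 in each without WT inflamed replicate 2 (0.017). Of 6 tested erythroid and platelet genes, 3 fell in WT and 4 in KO LECs, against 2.59% and 2.92% of all genes, with median responses of -2.23 and -3.43.

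Lgals9, the galectin-9 gene of the checkpoint list, was at 1765, 1802, 1867 and 1943 TPM in WT inflamed and 1587, 1192, 1682 and 1429.8 TPM in KO inflamed LECs. It rose in WT LECs at 1.08 and had a response of 0.64 in KO LECs. All 4 WT inflamed libraries, replicate 2 included, were above all 4 KO inflamed libraries, and the interaction was -0.44 (SE 0.18, 95% interval -0.83 to -0.05, adjusted p = 0.668), not called. Cxcl1, a neutrophil chemokine, was lower after OVA in both genotypes and called in KO LECs only, with an interaction of -0.26 (SE 0.27, adjusted p = 0.682). Pcna, the sliding clamp of replication, and Mcm3 had interactions of 0.098 and 0.34.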
